A study of Homo sapiens with 6 samples.

Results

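The genes of the RB pocket proteins (RB1, RBL1 and RBL2) and of E2F transcription factors (E2F1, E2F2, E2F3, E2F4, E2F5, E2F7 and E2F8) were followed in HOK-16B cells that received cannabidiol (CBD) or vehicle. These 10 genes were chosen by symbol from the 58735 genes of the expression table, and all 10 were found and passed the filter of a mean of at least 1 FPKM over all libraries (fragments per kilobase of gene length, scaled to library depth). HOK-16B is a cultured, immortalized keratinocyte line from human oral epithelium. The CBD group held 3 libraries from cells given an inflammatory stimulus after pretreatment with CBD, a cannabinoid. The vehicle group held 3 libraries from cells given the same stimulus after vehicle excipient alone. The stimulus, dose and times are not in the labels, no unstimulated cells were analysed here, and the free-text descriptions number the line differently for each sample while the cell line tag gives HOK-16B for all. Nothing in the labels says that the 3 libraries of a group came from separate cultures, so each p-value speaks only of the spread among these libraries, and that spread may be technical.

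The pocket proteins bind E2F factors and hold cell cycle genes in check until cyclin-dependent kinases phosphorylate them. E2F1, E2F2 and E2F3 are classed as activators of genes for DNA replication, E2F4 and E2F5 work mostly as repressors with RBL1 and RBL2, and the atypical factors E2F7 and E2F8 repress E2F targets without binding pocket proteins. As background from outside the labels, HOK-16B was immortalized with a high-risk human papillomavirus, whose E7 protein binds pocket proteins and frees E2F. Keratinocytes leave the cell cycle as they differentiate, a step in which pocket proteins take part.

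Several of these genes are themselves known E2F targets, and 4 of the 6 members with a RefSeq promoter window at the annotated gene start hold an E2F motif there. The motif was searched on both strands as TTTCCCGC, TTTCGCGC, TTTGCCGC or TTTGGCGC. For comparison, 3.31% of all 35116 RefSeq windows of 300 bases held at least 1 of these words. The share was larger among tested genes with a RefSeq window, as members are, with 616 holding the motif and 8191 not. Binding or regulation at these matches was not tested. The upstream stretches of 90 bases are written 5′ to 3′ on the strand of the gene, with the motif matches in capitals (RefSeq, GRCh38.p14), because they set the members with a match beside each other.
RBL1, chr20:37095998-37096087, minus strand: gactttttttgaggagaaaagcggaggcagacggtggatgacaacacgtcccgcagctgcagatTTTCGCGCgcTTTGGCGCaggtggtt
E2F1, chr20:33686405-33686494, minus strand: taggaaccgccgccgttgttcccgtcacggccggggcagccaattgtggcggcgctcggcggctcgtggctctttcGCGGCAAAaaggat
E2F2, chr1:23531234-23531323, minus strand: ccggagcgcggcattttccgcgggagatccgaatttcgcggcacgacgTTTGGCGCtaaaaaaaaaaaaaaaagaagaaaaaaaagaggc
E2F3, chr6:20401789-20401878, plus strand: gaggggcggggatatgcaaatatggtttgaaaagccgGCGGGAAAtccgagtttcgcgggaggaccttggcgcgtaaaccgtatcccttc
RBL1 held 2 matches side by side, starting 26 and 16 bases before the RefSeq gene start, and E2F2 and E2F3 held 1 each, starting 42 and 53 bases before theirs. E2F1 held 1 match in the stretch shown, starting 33 bases before the RefSeq gene start, and 2 in its whole window. The RefSeq starts differ by some bases from the GENCODE 29 starts given with each gene, and the stretches end before whichever of the starts comes first. The windows of E2F4 and E2F7 held none of these words, which says only that the letters are not there.

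The libraries held 22160025, 21472106 and 19011609 fragments in genes with CBD and 21202392, 20272928 and 18214919 with vehicle. All 12 keratinocyte markers were expressed, from 48.7 to 3330 FPKM, while the fibroblast genes COL1A2, COL3A1, DCN, LUM and PDGFRA and the leukocyte genes PTPRC and CD3E were under 0.05 FPKM. Summed fibroblast markers, of which only COL1A1 reached 1 FPKM, stood at 9.31 to 9.41 FPKM with CBD and 7.40 to 8.14 FPKM with vehicle. Summed leukocyte, endothelial and melanocyte markers were at most 3.20, 0.159 and 1.603 FPKM with CBD and 3.12, 0.123 and 1.53 FPKM with vehicle, and the part of these markers in the results was not tested. Libraries differed in base composition along with the groups, as the mean transcript GC content per fragment was 50.7% to 50.8% with CBD and 49.6% to 50.3% with vehicle. Vehicle replicate 1 stood farthest from the other libraries on the first principal component, at 25.1, against -12.7 to -10.3 for the CBD libraries and -0.74 and 9.36 for the other vehicle libraries.

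Whether CBD altered the genes of the RB and E2F switch was asked by comparing the 3 CBD with the 3 vehicle libraries. None of the 10 genes passed the threshold over all genes, and no mean differed between the groups by more than 26.8%. With CBD the means of RB1, RBL1, E2F3, E2F5 and E2F7 were 10.1% to 26.8% lower and those of E2F1 and E2F2 15.04% and 12.4% higher, while RBL2, E2F4 and E2F8 lay within 6.03% of their vehicle means. The test was limma on log2(FPKM + 1) across 12517 genes, two-sided, with Benjamini-Hochberg adjustment over all of them and a threshold of 0.05. It called 0 of the 10 members, against 0.352% of all tested genes, and the smallest limma adjusted p among the members was 0.0925. At an unadjusted p under 0.05 there were 4 members, 1 higher and 3 lower, and 31.4% of all tested genes, 15.4% higher and 16% lower. The smallest p of an exact permutation test with 3 libraries a group is 0.1. The CBD and vehicle values did not overlap for 3 members, 0 higher and 3 lower, and for 40.7% of all tested genes, 18.7% higher and 21.9% lower. In bulk RNA, fewer cells in one phase of the cycle and less RNA per cell cannot be told apart.

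The members' call depended on the libraries and the test. Without vehicle replicate 2, limma called RB1 (adjusted p = 0.0423), RBL1 (0.0256) and E2F1 (0.0460), along with 18.8% of all genes. Without vehicle replicate 1, which stood apart, 0 members were called. The log2 difference was then -0.12 for RB1, -0.06 for E2F7, 0.05 for E2F2 and -0.01 for RBL2. In the same setting it was -0.15 for RBL1, 0.15 for E2F1, -0.15 for E2F3 and -0.26 for E2F5. E2F4 stood at 0.0032 and E2F8 at 0.04. With limma-voom on fragments recovered from the FPKM values, 1 member was called, E2F5 (adjusted p = 0.0357), along with 13.9% of all genes. E2F5 was also called when protein-coding genes alone were tested (limma adjusted p = 0.0411), along with 12.3% of them, and library quality weights called RB1, RBL1, E2F1, E2F3 and E2F5, along with 34% of all genes.

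**Figure D1:**
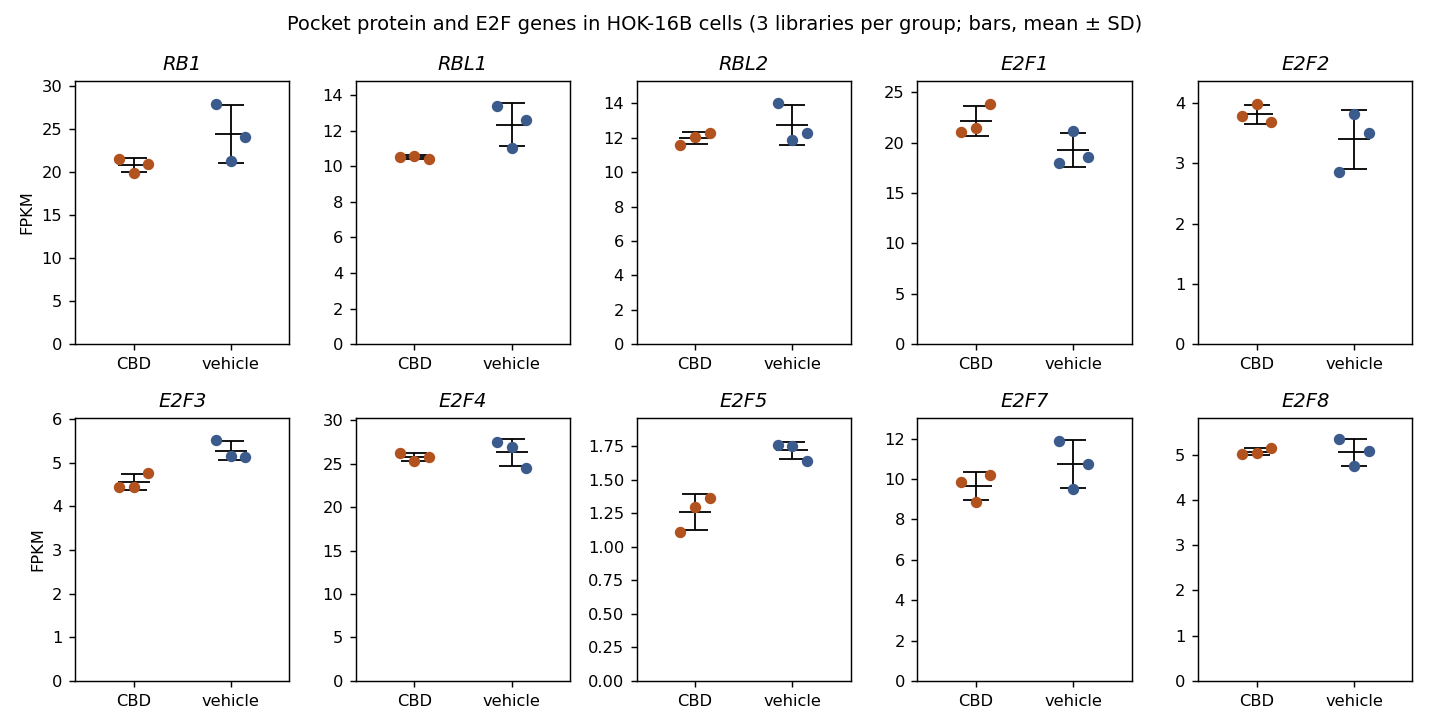
Expression of the 10 genes, in FPKM on axes that start at 0, with 1 point per library, CBD left of vehicle, and bars for the mean ± SD of 3 libraries. The groups do not overlap for RBL1, E2F3 and E2F5, each lower with CBD, and overlap for the other 7 genes.

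Among the pocket proteins, RB1 (ENSG00000139687, chromosome 13, 48303726 to 48599436, GENCODE 29 on GRCh38) encodes the retinoblastoma protein, which binds the activator E2F factors. RB1 had 21.5, 19.9 and 21.0 FPKM in the CBD libraries, against 27.9, 21.3 and 24.1 FPKM in the vehicle libraries. The groups overlapped, because vehicle replicate 2 lay just under CBD replicate 1, and vehicle replicate 1 was the highest of the 6. The log2 difference, CBD minus vehicle on the log2(FPKM + 1) scale, was -0.22 ± 0.09 (SE; limma adjusted p = 0.171, 95% interval -0.44 to 0.01). LPAR6, a receptor gene that overlaps RB1 on the opposite strand, shares no exonic base with it.

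RBL1 (ENSG00000080839, chromosome 20, 36996349 to 37095995) encodes p107, a pocket protein made mostly in cycling cells. RBL1 had 10.5, 10.6 and 10.4 FPKM in the CBD libraries, against 13.4, 11.03 and 12.6 FPKM in the vehicle libraries. All CBD values lay below all vehicle values, and the CBD libraries were closer to each other (10.5 ± 0.0963, SD, n = 3) than the vehicle libraries (12.3 ± 1.20, SD, n = 3). Its log2 difference was -0.21 ± 0.07 (SE; limma adjusted p = 0.109, 95% interval -0.38 to -0.04).

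RBL2 (ENSG00000103479, chromosome 16, 53433977 to 53491649) encodes p130, the pocket protein of quiescent cells. RBL2 had 11.6, 12.1 and 12.3 FPKM in the CBD libraries, against 14.0, 11.9 and 12.3 FPKM in the vehicle libraries. The groups overlapped, with vehicle replicate 1 alone above the rest. The log2 difference was -0.08 ± 0.07 (SE; limma adjusted p = 0.440, 95% interval -0.24 to 0.08), and 18.2% of the exonic bases of RBL2 are shared with AKTIP and another annotated gene, so its reads may be split.

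Of the activators, E2F1 (ENSG00000101412, chromosome 20, 33675683 to 33686404) encodes the factor first found through its binding to the retinoblastoma protein. E2F1 had 21.1, 21.5 and 23.9 FPKM in the CBD libraries, against 17.9, 21.2 and 18.6 FPKM in the vehicle libraries. The groups overlapped by a narrow margin, as vehicle replicate 2 exceeded CBD replicate 1. Its log2 difference was 0.19 ± 0.08 (SE; limma adjusted p = 0.142, 95% interval 0.01 to 0.38), the highest of the 10.

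E2F2 (ENSG00000007968, chromosome 1, 23506430 to 23531220), a close relative of E2F1, had 3.78, 3.98 and 3.68 FPKM in the CBD libraries, against 2.86, 3.82 and 3.50 FPKM in the vehicle libraries. Its groups overlapped, and vehicle replicate 1 was the lowest library. The log2 difference was 0.14 ± 0.09 (SE; limma adjusted p = 0.324, 95% interval -0.08 to 0.35).

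E2F3 (ENSG00000112242, chromosome 6, 20401906 to 20493715), the activator most tied to re-entry into the cycle, lay the other way. E2F3 had 4.45, 4.43 and 4.76 FPKM in the CBD libraries, against 5.53, 5.16 and 5.13 FPKM in the vehicle libraries. All CBD values were below all vehicle values, and the log2 difference was -0.18 ± 0.05 (SE; limma adjusted p = 0.0938, 95% interval -0.31 to -0.05). The 3 activators did not lie on one side of 0, and each has the E2F motif in its window.

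Among the repressors, E2F4 (ENSG00000205250, chromosome 16, 67192169 to 67198918), the E2F most used by p107 and p130, had 26.2, 25.3 and 25.8 FPKM in the CBD libraries, against 27.5, 26.9 and 24.5 FPKM in the vehicle libraries. The CBD values lay inside the vehicle range. The log2 difference was -0.03 ± 0.06 (SE; limma adjusted p = 0.745, 95% interval -0.16 to 0.10), and it lay above 0 without vehicle replicate 1 (0.0032) and with library quality weights (0.0410).

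E2F5 (ENSG00000133740, chromosome 8, 85177225 to 85217158), the partner of p130 and p107 that is best known from differentiating epithelia, had 1.11, 1.297 and 1.37 FPKM in the CBD libraries, against 1.76, 1.75 and 1.64 FPKM in the vehicle libraries. All CBD values lay below all vehicle values. It had the lowest counts of the 10, with 157, 178 and 167 fragments in the CBD libraries and 238, 228 and 191 in the vehicle libraries. The log2 difference was -0.27 ± 0.08 (SE; limma adjusted p = 0.0925, 95% interval -0.46 to -0.08), and the added 1 in log2(FPKM + 1) understates the change of a gene this low. On the log2 CPM scale of limma-voom the difference was -0.46 ± 0.12 (SE; limma-voom adjusted p = 0.0357). In E2F5 18.6% of the exonic bases are shared with C8orf59 and an antisense gene, and since the strand setting is not given in the sources used here, their reads cannot be told apart. Among the genes whose log2 values followed E2F5 most closely over the 6 libraries, of 7275 genes with a mean of at least 5 FPKM, were POGK (Pearson r = 0.98) and LARGE2 (0.98), given as a description only.

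Of the atypical factors, E2F7 (ENSG00000165891, chromosome 12, 77021247 to 77065580) had 9.86, 8.87 and 10.2 FPKM in the CBD libraries, against 11.9, 9.53 and 10.7 FPKM in the vehicle libraries. The groups overlapped, and the log2 difference was -0.14 ± 0.09 (SE; limma adjusted p = 0.311, 95% interval -0.34 to 0.07). E2F8 (ENSG00000129173, chromosome 11, 19224063 to 19241620), its partner in repressing S phase genes, had 5.02, 5.03 and 5.15 FPKM in the CBD libraries, against 5.35, 4.75 and 5.07 FPKM in the vehicle libraries. The CBD values of E2F8 lay inside the vehicle range, with a log2 difference of 0.0033 ± 0.06 (SE; limma adjusted p = 0.973, 95% interval -0.13 to 0.13).

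Levels differed far more between the genes than between the groups. FPKM is per gene length, but yield that varies with GC content (39.3% to 62.5% among the members) is not corrected, and RBL2 and E2F5 share exonic bases with other genes, so the order holds for these FPKM values only. Over the 6 libraries E2F4 stood at 26.0 ± 1.07 FPKM, RB1 at 22.6 ± 2.94 and E2F1 at 20.7 ± 2.14 (SD, n = 6). RBL2 (12.4 ± 0.866), RBL1 (11.4 ± 1.26) and E2F7 (10.2 ± 1.05) came next, then E2F8 (5.06 ± 0.194), E2F3 (4.91 ± 0.437), E2F2 (3.60 ± 0.400) and E2F5 (1.49 ± 0.268), all in FPKM. Within that order the ranges of E2F4 and RB1, RB1 and E2F1, RBL2 and RBL1, RBL1 and E2F7, and E2F8 and E2F3 overlapped, while 4 steps were clear of overlap: from E2F1 to RBL2, from E2F7 to E2F8, from E2F3 to E2F2 and from E2F2 to E2F5.

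Summed over the 3 pocket proteins, the level was 43.6, 42.5 and 43.6 FPKM in the CBD libraries and 55.3, 44.2 and 49.0 FPKM in the vehicle libraries. Every CBD sum lay below every vehicle sum, by the narrowest margin against vehicle replicate 2. Among single tested genes, 21.9% likewise had every CBD value below every vehicle value. Taken alone, RB1 and RBL2 overlapped between the groups. The GC contents of the 3 genes run from 39.3% to 41.6%, and the part of base composition in this sum was not tested. The activators E2F1, E2F2 and E2F3 together made 41.0% to 43.2% of the summed E2F FPKM in the CBD libraries and 36.1% to 41.2% in the vehicle libraries, and these ranges overlapped. The sum of all 7 E2F genes was 72.2 ± 2.31 FPKM with CBD and 71.7 ± 2.14 FPKM with vehicle (SD, n = 3 each).

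Of 6 ratios of FPKM taken within a library, given as a description with no test, 3 did not overlap between the groups. The pairs were picked, and not all pairs of members were taken. For comparison, the groups did not overlap for 40.7% of all single tested genes. E2F1 over E2F3 was 4.86 ± 0.142 with CBD and 3.66 ± 0.427 with vehicle, E2F1 over E2F4 was 0.859 ± 0.0617 with CBD and 0.732 ± 0.0704 with vehicle, and E2F7 over E2F8 was 1.90 ± 0.121 with CBD and 2.12 ± 0.111 with vehicle (SD, n = 3 each). The groups overlapped for E2F1 over RB1 (1.07 ± 0.0793 with CBD and 0.804 ± 0.178 with vehicle), RB1 over RBL1 (1.98 ± 0.0876 with CBD and 1.97 ± 0.0961 with vehicle) and E2F1 over E2F2 (5.82 ± 0.588 with CBD and 5.71 ± 0.509 with vehicle). The transcripts of E2F1 and E2F3 differ in GC content, at 62.5% and 44.5%, while E2F4 has 59.3%, E2F7 44.6% and E2F8 46.4%. The part of base composition in these ratios was not tested.

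The log2 differences of the members moved with the GC content of their transcripts. All 6 members under 45% GC (RB1, RBL1, RBL2, E2F3, E2F5 and E2F7) had log2 differences from -0.27 to -0.08, and the 3 over 55% GC (E2F1, E2F2 and E2F4) had differences from -0.03 to 0.19. Over the 10 members the Spearman correlation of GC content with the log2 difference was 0.92, and over 12510 tested genes it was 0.67, both descriptions across genes that share the same libraries. Among all tested genes the median log2 difference was -0.17 in the GC-poorest decile and 0.24 in the GC-richest.

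With a loess trend in GC content removed from each library, the differences of 8 of the 10 members lay closer to 0 and 0 members were called, at 0.0399% of all genes called by limma. RB1 then stood at -0.06 (95% interval -0.19 to 0.08), RBL1 at -0.07 (-0.17 to 0.04) and E2F1 at -0.02 (-0.15 to 0.12). E2F3 stood at -0.09 (-0.19 to 0.02) and E2F5 at -0.12 (-0.32 to 0.09), and RBL2 lay above 0, at 0.0543 (-0.0462 to 0.155). E2F4 lay the other way, at -0.17 (-0.33 to -0.02; limma adjusted p = 0.238), and E2F8 at 0.07 (-0.03 to 0.17), both farther from 0 than without the correction. E2F2 stood at 0.04 and E2F7 at -0.05, both with intervals that include 0. Base composition moved with the groups, and its part in the members' differences beyond these values was not tested. The median over the 10 members was -0.11 as deposited and -0.05 with the trend removed, beside -0.01 and 0.0013 over all tested genes.

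**Figure D2:**
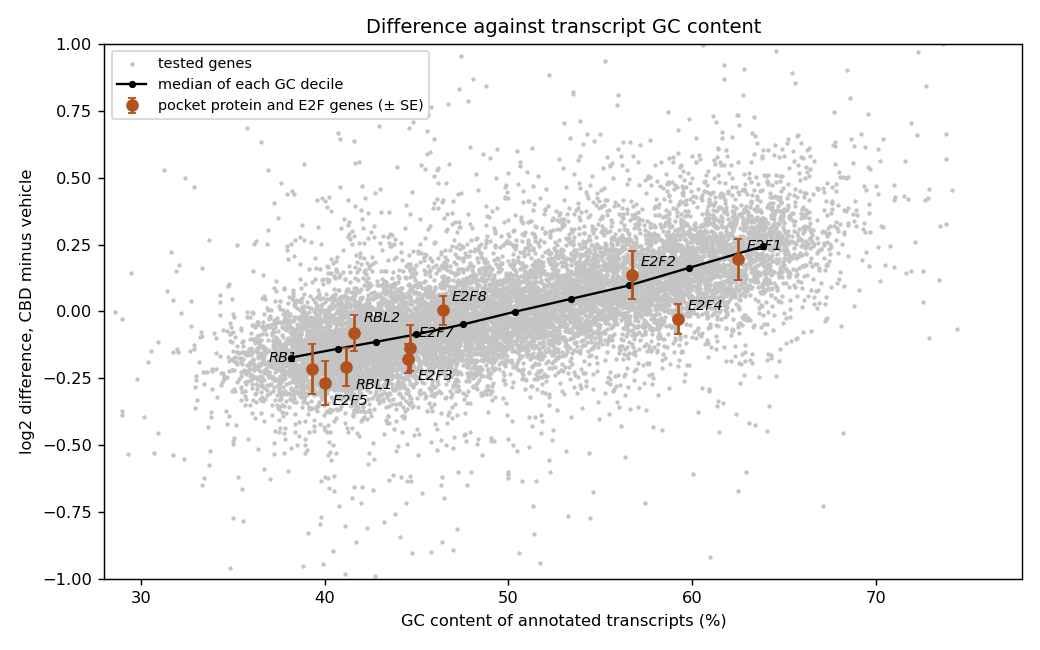
Log2 difference, CBD minus vehicle on log2(FPKM + 1), against the GC content of the annotated transcripts in percent, with grey points for tested genes (42 of 12510 lie outside the axes), a line through the medians of the GC deciles and orange points ± SE for the 10 genes. Members under 45% GC lie below 0 and E2F1 and E2F2, over 55% GC, lie above it, along the line that runs from -0.17 to 0.24. E2F4, at 59.3% GC, lies off the line at -0.03, where the median of its GC decile is 0.16.

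**Figure D3:**
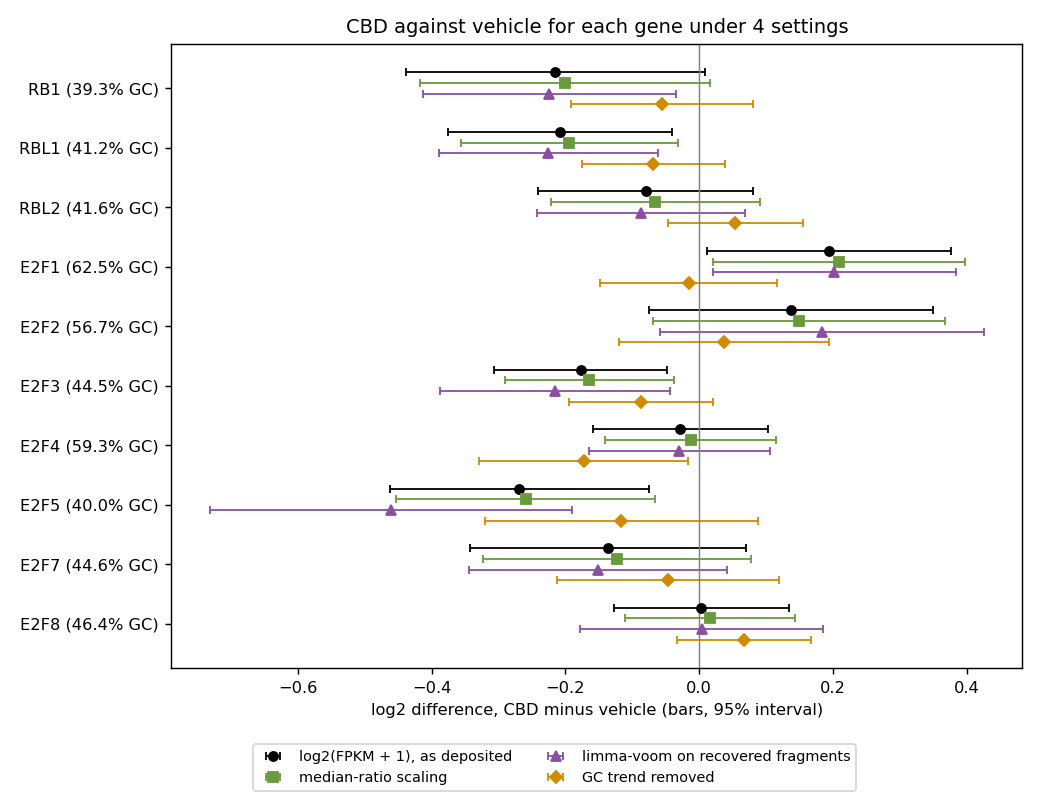
Log2 difference, CBD minus vehicle, of each gene with its 95% interval under 4 settings, where the limma-voom values are on log2 CPM and the others on log2(FPKM + 1). The interval with the GC trend removed (orange) includes 0 for each gene except E2F4, which stands at -0.17.

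Around the switch, other genes of the pathway were read from the same fit. Of 7 inhibitors of cyclin-dependent kinases, which keep pocket proteins active, 1 rose and 0 fell by limma, beside 0.352% of all tested genes called. All 7 lay above 0 with an unadjusted p under 0.05, as did 15.4% of all tested genes. Their median log2 difference was 0.38 as deposited and 0.35 with the GC trend removed, at a median GC content of 58.6%. CDKN1C, which encodes p57, rose with 31.3, 34.0 and 30.9 FPKM in the CBD libraries, against 16.8, 20.1 and 16.7 FPKM in the vehicle libraries. Its log2 difference was 0.81 ± 0.08 (SE; limma adjusted p = 0.0452), and 0.59 with the GC trend removed (limma adjusted p = 0.0393). The call for CDKN1C was lost without CBD replicate 1 (limma adjusted p = 0.160), CBD replicate 2 (0.198), CBD replicate 3 (0.177) or vehicle replicate 3 (0.167), and held in 12 of 20 alternatives, with log2 differences from 0.59 to 0.89 over all 20. CDKN2D (p19) averaged 6.004 ± 0.263 FPKM with CBD and 3.71 ± 0.480 with vehicle (limma adjusted p = 0.0502). CDKN2A, which encodes p16 and ARF, averaged 84.5 ± 2.90 FPKM with CBD and 65.5 ± 4.65 with vehicle (limma adjusted p = 0.0553). CDKN2C (p18) averaged 11.3 ± 1.04 FPKM with CBD and 7.95 ± 0.665 with vehicle (limma adjusted p = 0.0558). The log2 differences of CDKN2D, CDKN2A and CDKN2C were 0.58, 0.37 and 0.46 as deposited. With the GC trend removed they were 0.39, 0.19 and 0.38 (limma adjusted p = 0.0772, 0.164 and 0.0854). Of the 7 inhibitors, 7 were called by limma-voom, beside 13.9% of all genes.

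Of 13 tested genes listed as cyclins and kinases of G1 and S phase, 0 rose and 0 fell by limma. Most of these act on pocket proteins, but not all do so directly. At an unadjusted p under 0.05 there were 4, a share near the 31.4% of all tested genes. By limma-voom 4 were called lower, beside 13.9% of all genes in either direction. The median log2 difference of the 13 was -0.14 as deposited and -0.04 with the GC trend removed. CCND1, the cyclin D1 gene, averaged 31.1 ± 0.456 FPKM with CBD and 39.7 ± 3.56 with vehicle, a log2 difference of -0.34 ± 0.07 (SE; limma adjusted p = 0.0604), and lay at -0.43 with the GC trend removed (limma adjusted p = 0.0868). CCND2, a second D cyclin, averaged 3.05 ± 0.267 FPKM with CBD and 3.92 ± 0.0799 with vehicle (limma adjusted p = 0.0672). The kinase gene CDK6 averaged 8.77 ± 0.365 FPKM with CBD and 10.998 ± 1.35 with vehicle (limma adjusted p = 0.0874), and CCNH, a subunit of the kinase that activates other cyclin-dependent kinases, 3.26 ± 0.231 FPKM with CBD and 4.11 ± 0.240 with vehicle (limma adjusted p = 0.0745).

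DNA-binding partners of E2F and subunits of its complexes did not pass the threshold. TFDP1, the main dimer partner of E2F factors, averaged 80.7 ± 1.67 FPKM with CBD and 84.9 ± 3.84 with vehicle (limma adjusted p = 0.355). TFDP2 averaged 8.47 ± 0.189 FPKM with CBD and 8.09 ± 0.248 with vehicle (0.412), and E2F6, a repressor that does not bind pocket proteins, 6.21 ± 0.223 with CBD and 6.42 ± 0.491 with vehicle (0.684), both by limma. Of these 3 tested genes, 0 had an unadjusted p under 0.05 and 0 were called by limma or limma-voom. The MuvB core joins p107 or p130 with E2F4 into DREAM and later binds B-MYB and FOXM1. Of 7 tested genes for MuvB subunits, B-MYB and FOXM1, 0 passed by limma and 0 by limma-voom. At an unadjusted p under 0.05 there was 1, beside 31.4% of all tested genes. LIN9, a MuvB scaffold, averaged 4.96 ± 0.293 FPKM with CBD and 6.05 ± 0.916 with vehicle (limma adjusted p = 0.152), and FOXM1, the G2 activator, 27.2 ± 0.999 with CBD and 24.9 ± 2.25 with vehicle (0.272). LIN54, the DNA-binding subunit, averaged 4.95 ± 0.0566 FPKM with CBD and 5.45 ± 0.487 with vehicle (limma adjusted p = 0.269), and LIN52 8.45 ± 0.538 with CBD and 9.09 ± 1.02 with vehicle (0.492).

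Among 13 corepressors that pocket proteins recruit, KMT5C rose and 0 fell by limma, beside 0.352% of all tested genes called, and the median was 0.01. At an unadjusted p under 0.05 there were 1 higher and 1 lower, beside 15.4% higher and 16% lower of all tested genes. Called by limma-voom were 1 higher and 1 lower, beside 13.9% of all genes in either direction. KMT5C, a methyltransferase for lysine residues of histone H4, had 5.66, 5.66 and 5.89 FPKM in the CBD libraries, against 3.39, 4.04 and 3.79 FPKM in the vehicle libraries. Its log2 difference was 0.51 ± 0.06 (SE; limma adjusted p = 0.0452) as deposited and 0.26 with the GC trend removed, where the call was lost (limma adjusted p = 0.0779), at a transcript GC content of 64.6%. The call for KMT5C was also lost without CBD replicate 1 (limma adjusted p = 0.160), CBD replicate 2 (0.198), CBD replicate 3 (0.177) or vehicle replicate 3 (0.167), and held in 10 of the 19 alternatives that gave a value. The deacetylase gene HDAC2 averaged 7.31 ± 0.366 FPKM with CBD and 8.69 ± 0.552 with vehicle (limma adjusted p = 0.0841, limma-voom adjusted p = 0.0329). SMARCA4, a chromatin remodeller, averaged 15.8 ± 0.183 FPKM with CBD and 14.2 ± 1.28 with vehicle (limma adjusted p = 0.188), and the scaffold SIN3B 13.8 ± 0.251 with CBD and 12.9 ± 0.275 with vehicle (0.194).

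Of 16 genes for the turnover and dephosphorylation of E2F and pocket proteins, 0 passed by limma, 3 had an unadjusted p under 0.05, beside 31.4% of all tested genes, and 3 were called by limma-voom (1 higher, 2 lower), beside 13.9%, with a median of -0.06. SKP2, a ubiquitin ligase subunit that degrades p27 and is itself an E2F target, averaged 40.8 ± 1.09 FPKM with CBD and 47.6 ± 4.0004 with vehicle (limma adjusted p = 0.0947). Its partner SKP1 averaged 9.40 ± 0.195 FPKM with CBD and 10.8 ± 1.23 with vehicle (limma adjusted p = 0.170). MDM2, a ligase for p53 that also binds the retinoblastoma protein, averaged 3.92 ± 0.230 FPKM with CBD and 4.84 ± 0.275 with vehicle (limma adjusted p = 0.0738). PPP1CA, a phosphatase that removes phosphate from the retinoblastoma protein, averaged 82.0 ± 5.33 FPKM with CBD and 69.4 ± 4.18 with vehicle (limma adjusted p = 0.0864).

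The downstream readouts were also below the threshold. Of 50 tested G1/S targets of E2F, 0 rose and 0 fell by limma, while 15 lay above 0 and 35 below, beside 52.6% of all tested genes below 0. At an unadjusted p under 0.05 there were 4 higher and 18 lower, beside 15.4% higher and 16% lower of all tested genes, and limma-voom called 3 higher and 7 lower, beside 13.9% of all genes in either direction. The median log2 difference was -0.11 as deposited and -0.08 with the GC trend removed. CDT1, which licenses replication origins, averaged 34.6 ± 1.26 FPKM with CBD and 26.2 ± 2.23 with vehicle (limma adjusted p = 0.0557), and the polymerase gene POLD1 22.2 ± 0.766 with CBD and 18.2 ± 0.772 with vehicle (0.0574). TK1, thymidine kinase, averaged 164 ± 7.83 FPKM with CBD and 141 ± 5.46 with vehicle (limma adjusted p = 0.0738), whereas MCM10, a replication factor, averaged 7.79 ± 0.328 with CBD and 9.42 ± 0.642 with vehicle (0.0734). CDT1, POLD1 and TK1 had GC contents of 65.2%, 64.8% and 61.7% and differences of 0.13, 0.02 and 0.03 with the GC trend removed, and MCM10 had 45.1% and -0.16.

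Of 39 tested G2/M targets of DREAM, 0 rose and 0 fell by limma, 31 lay below 0, and 1 higher and 14 lower had an unadjusted p under 0.05, with 9 called lower by limma-voom. Over all tested genes 52.6% lay below 0, 15.4% higher and 16% lower had an unadjusted p under 0.05, and limma-voom called 13.9% in either direction. Their median was -0.11 as deposited and -0.05 with the GC trend removed. ECT2, needed for cytokinesis, averaged 28.3 ± 1.37 FPKM with CBD and 35.2 ± 3.29 with vehicle (limma adjusted p = 0.0726), and the kinetochore gene NDC80 11.9 ± 0.148 with CBD and 14.0 ± 0.906 with vehicle (0.0746). CENPE, a kinetochore motor gene, averaged 7.96 ± 0.148 FPKM with CBD and 10.3 ± 1.41 with vehicle (limma adjusted p = 0.0778), and HMMR, a spindle protein gene, 20.5 ± 0.762 with CBD and 24.6 ± 2.13 with vehicle (0.0831). These 4 genes had GC contents from 35.5% to 40.8%.

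**Figure D4:**
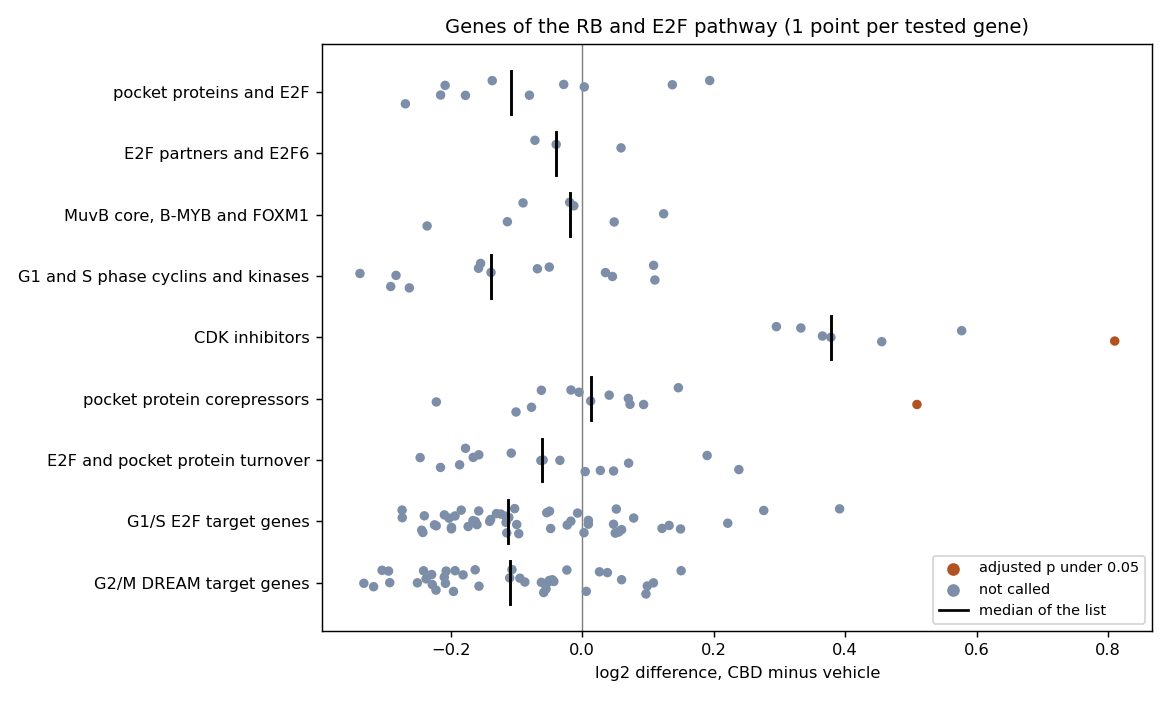
Log2 difference, CBD minus vehicle on log2(FPKM + 1), of every tested gene in the pathway lists, with 1 row per list, 1 point per gene, a bar at the median of the list and orange for genes with a limma adjusted p under 0.05. Only CDKN1C (0.81) among the CDK inhibitors and KMT5C (0.51) among the corepressors are orange.

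Across all tested genes with a RefSeq window, the 616 whose window held the E2F motif had a median log2 difference of -0.05, with 1 called higher and 0 lower by limma. The other 8191 had a median of -0.02, with 23 called higher and 6 lower. With the GC trend removed these medians were -0.01 and -0.00012.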

How the data were processed

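RNA from 6 libraries of HOK-16B cells, 3 with CBD and 3 with vehicle, was column-purified total RNA, read as paired ends per the labels' protocols. The treatment label set the groups, and the titles gave replicate numbers. The deposited table holds FPKM for 58735 genes, per the file headers, and each library has a column of its own. HISAT2 2.0.5 and featureCounts 1.5.0-p3 are listed in the submitters' processing notes. Their genome build, annotation, strand setting and filters are not given in the sources used here. Because FPKM is relative to library size, a shift in highly expressed genes moves all others, and differences in yield with GC content remain.

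All 58735 identifiers matched GENCODE 29 (GRCh38), which gave symbols, spans, exon-union lengths and transcript GC content. Multiplied by that length and a library factor, 100% of the FPKM values came within 0.01 of a whole number of fragments. At 1 kb a floor of 3 fragments corresponds to 0.126 to 0.153 FPKM, counting error only. Replicates differed by more than sampling noise (chi-square per gene from 2.95 to 16.5), so none was taken as a second run of another.

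Differences were computed with limma 3.58.1 in R 4.3.3 on log2(FPKM + 1) in 12517 genes averaging 1 FPKM or more, in a design of group alone with the variance trend over intensity, two-sided, with Benjamini-Hochberg adjustment over all of them. Members were read from that fit. The GC correction was a loess fit (span 0.3) per library, and limma-voom ran on the recovered fragments. The procedure was tested on simulated data with the same dispersion in all genes and libraries and no GC trend. That run therefore says nothing about a GC trend or unequal spread of replicates, both present here. In total 20 alternatives were tried. From each pathway list the called genes and the 4 genes with the smallest unadjusted p are named, or fewer where fewer were tested. Of the 3 genes most alike to the member with the smallest p, 1 is not reported here. Of the members, promoter windows were used where the RefSeq start lay within 100 bases of the GENCODE start, and bases downstream of either start were not printed. The members, the lists and the alternatives, the GC correction among them, were chosen with earlier results of these data known. Python 3.11.15 with pandas 2.3.3, numpy 2.4.6, scipy 1.17.1 and matplotlib 3.10.9 made the tables and plots.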

Additional observations from a re-analysis of the deposited data

How the results depend on the processing

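Counts of called genes moved widely with the setting. Over all genes limma called 44, against 0 with no filter on low values (4670 at an unadjusted p under 0.05), 732 at a mean of at least 5 FPKM, 73 with median-ratio scaling, 73 with quantile normalization, 4 with the same FPKM sum in every library, 1 with no intensity trend, 135 with a robust prior, 4252 with library quality weights, 1746 with limma-voom, 1315 among protein-coding genes, 5 with the GC trend removed and 0 with the replicate block (3676 at an unadjusted p under 0.05). Leaving out 1 library gave 0 to 2351 over all genes and 0 to 3 members. The members called numbered 0 in 16 of the 20 alternatives, 5 with library quality weights (RB1, RBL1, E2F1, E2F3 and E2F5), 1 with limma-voom and 1 among protein-coding genes alone (E2F5 in both). The cause of these shifts was not tested. Deviations from the group means were nearly uncorrelated between same-numbered libraries (-0.0027, 0.05 and 0.02). Between libraries of different numbers the correlations ran from -0.05 to 0.03. With 3 libraries per group this cannot exclude that the replicate numbers pair libraries. No member was called with the replicate block. Signs changed for 4 members: RBL2 to 0.0543 and E2F1 to -0.0156 with the GC trend removed, E2F4 to 0.0410 with library quality weights and E2F8 to -0.0103 with the same FPKM sum, while leaving out 1 library gave -0.0755 to 0.0032 for E2F4 and -0.0333 to 0.0377 for E2F8. Among the other lists, CDKN1C and KMT5C both lost their call with no filter on low values (limma adjusted p = 0.124 and 0.134), with the same FPKM sum (0.0528 for both), with no intensity trend (0.0649 for both), with the replicate block (0.0808 and 0.0905) and without any 1 CBD library or vehicle replicate 3, and KMT5C also with the GC trend removed. E2F2, E2F3 and E2F5 have no value at a mean of at least 5 FPKM. With 3 libraries per group and 157 to 238 fragments, E2F5 is the member most limited by depth.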
